A study of Mus musculus with 6 samples.

Results

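The 10 genes described here are Dusp4, Dusp5, Dusp6, Spry1, Spry2, Spry4, Spred1, Etv4, Etv5 and Egr1, a set of feedback inhibitors and transcriptional response genes of the ERK pathway. They were chosen by symbol as known genes of that pathway, with earlier results of these data known, and all 10 were found among the 54446 gene IDs of the count table. RNA was sequenced from bone marrow–derived macrophages (BMDMs) of male BALB/c mice aged 6 to 8 weeks, grown for 7 days in medium with 20% L929-conditioned medium, which supplies CSF-1. There were 6 libraries, 1 per condition: unpolarized macrophages (M0), macrophages given LPS (50 ng/mL) together with IFN-γ (20 ng/mL) for 24 hours (M1), and macrophages given IL4 (20 ng/mL) for the same time (M2), each as a DMSO control and with regorafenib (1 µM), which was added 1 hour before polarization. M0 was not polarized, and how long its cells were kept with regorafenib is not given in the sources used here. Regorafenib is a multikinase inhibitor used in liver and colorectal cancer. The number of mice behind a library is not given in the sources used here, and no difference between a pair of libraries has a replicate check.

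Growth factor receptors such as the CSF-1 receptor, and Toll-like receptors by another route, lead to phosphorylation of the kinases ERK1 and ERK2, which enter the nucleus and switch on a quick program of genes. Part of that program acts back on the pathway: dual-specificity phosphatases (Dusp) remove the phosphates from ERK and related kinases, and Sprouty (Spry) and Spred proteins act upstream, between the receptor and Raf. Transcripts of these inhibitors, and of transcription factors such as Egr1, Etv4 and Etv5, are widely used as a readout of ERK output, since they are made when the pathway signals and are short-lived.

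The libraries held between 25359309 and 34898342 counts and were scaled by the trimmed mean of M-values (TMM), with factors between 0.820 and 1.12. The 6 macrophage markers each had at least 10 counts in every library. Marker levels are given as CPM (counts relative to library size), summed over the list. The M1 markers summed to 17240 CPM in the M1 control and 11640 CPM in M1 with regorafenib, against at most 8.57 CPM elsewhere, and the M2 markers to 1297 and 641 CPM in the M2 pair, against at most 33.8 CPM elsewhere. The summed macrophage markers were higher with regorafenib than in the control of each state, at 28180 and 45150 CPM in M0, 25650 and 28020 CPM in M1, and 19830 and 30520 CPM in M2. The fibroblast markers summed to 3.06 CPM in the M0 control and 9.80 CPM with regorafenib, 8.63 and 6.56 CPM in M1, and 3.34 and 5.43 CPM in M2. The neutrophil markers summed to 84.8 and 158 CPM in M0, 153 and 106 CPM in M1, and 88.8 and 132 CPM in M2, with 1 of the 4 neutrophil markers at 0 in every library. The dendritic cell markers summed to 0.212 to 4.69 CPM, the T and B cell markers to at most 0.107 CPM, and the mast cell markers were at 0. The part of other cells in the values below was not tested, and in bulk RNA fewer cells that express a gene and less RNA per cell cannot be told apart.

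The promoters of 6 of the 10 genes were matched in the RefSeq promoter table (GRCm38.p6), in 7 windows of up to 250 bases before the transcription start, and those of Dusp4, Spry4, Etv4 and Egr1 were not. They were searched on both strands for the CArG box, the element bound by serum response factor, and for CGGAAG (ETS factors), TGANTCA (AP-1) and TGACGTCA (CREB). Positions are counted from the RefSeq start site, with -1 the base before it. For Spred1 that site lies upstream of the Gencode start, as its window ends at base 117121070 and the Gencode gene starts at 117121374. Dusp5 held 2 CArG boxes side by side, at -82 to -73 and at -72 to -63, whereas 1.47% of the 32817 promoters of the table held any. Dusp6 held CGGAAG on the opposite strand at -62 to -57, and Spred1 held it at -17 to -12, a motif found in 13.6% of all promoters. The windows of Spry1, Spry2 and Etv5 held none of the 4 motifs, and TGANTCA (6.75% of all promoters) and TGACGTCA (1.55%) were in none of the windows of the 6 genes. The 3 promoters with a match are shown, so that the motifs can be seen in their context. Each is written 5′ to 3′ on the plus strand, which is the strand of all 3 genes, with annotated exons left out and the motif in capitals. For Dusp5, the RefSeq start lies 36 bases downstream of the Gencode start, and those 36 bases, which are exon in Gencode, are not shown:
Dusp5, chr19:53528895-53529108: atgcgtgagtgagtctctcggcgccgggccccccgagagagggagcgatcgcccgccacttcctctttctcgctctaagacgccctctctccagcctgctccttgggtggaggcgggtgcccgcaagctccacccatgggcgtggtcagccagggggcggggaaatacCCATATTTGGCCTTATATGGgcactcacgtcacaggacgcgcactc
Dusp6, chr10:99262981-99263230: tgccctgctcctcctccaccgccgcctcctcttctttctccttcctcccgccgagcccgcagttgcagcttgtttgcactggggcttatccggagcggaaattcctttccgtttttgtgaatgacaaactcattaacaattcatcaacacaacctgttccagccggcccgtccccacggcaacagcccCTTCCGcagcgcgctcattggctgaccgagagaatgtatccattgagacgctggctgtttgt
Spred1, chr2:117120821-117121070: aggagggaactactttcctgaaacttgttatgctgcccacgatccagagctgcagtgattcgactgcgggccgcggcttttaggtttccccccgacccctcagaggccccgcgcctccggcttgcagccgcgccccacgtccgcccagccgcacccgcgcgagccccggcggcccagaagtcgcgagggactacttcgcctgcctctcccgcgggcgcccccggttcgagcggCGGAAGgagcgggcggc
A match is a description of the letters, not a bound site. GC made up 56.4% to 71.2% of the members' 250-base windows, against a median of 52.4% over all promoters.

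Levels were compared between genes as RPKM, which takes exon length and the TMM-scaled library size into account. Dusp4 was the highest of the 10 in 5 of the 6 libraries, with 42.4 RPKM in the M0 control, 81.8 in the M1 control and 94.8 in the M2 control. Spred1 was the highest in M0 with regorafenib, at 16.3 RPKM against 11.1 for Dusp4. Dusp6 (5.33 to 27.9 RPKM) and Etv5 (3.28 to 15.8 RPKM) followed, except in M0 with regorafenib, where Spry2 (3.47 RPKM) was above Etv5. Spry2 reached 5.26 RPKM in the M0 control and Dusp5 lay between 0.399 and 6.35 RPKM. Egr1 reached 2.07 RPKM in the M1 control and stayed at or below 0.279 RPKM in M0 and M2. Spry1, Spry4 and Etv4 were at or below 0.571 RPKM throughout, and Spry2 was the highest of the 3 Sprouty genes in each library.

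**Figure D1:**
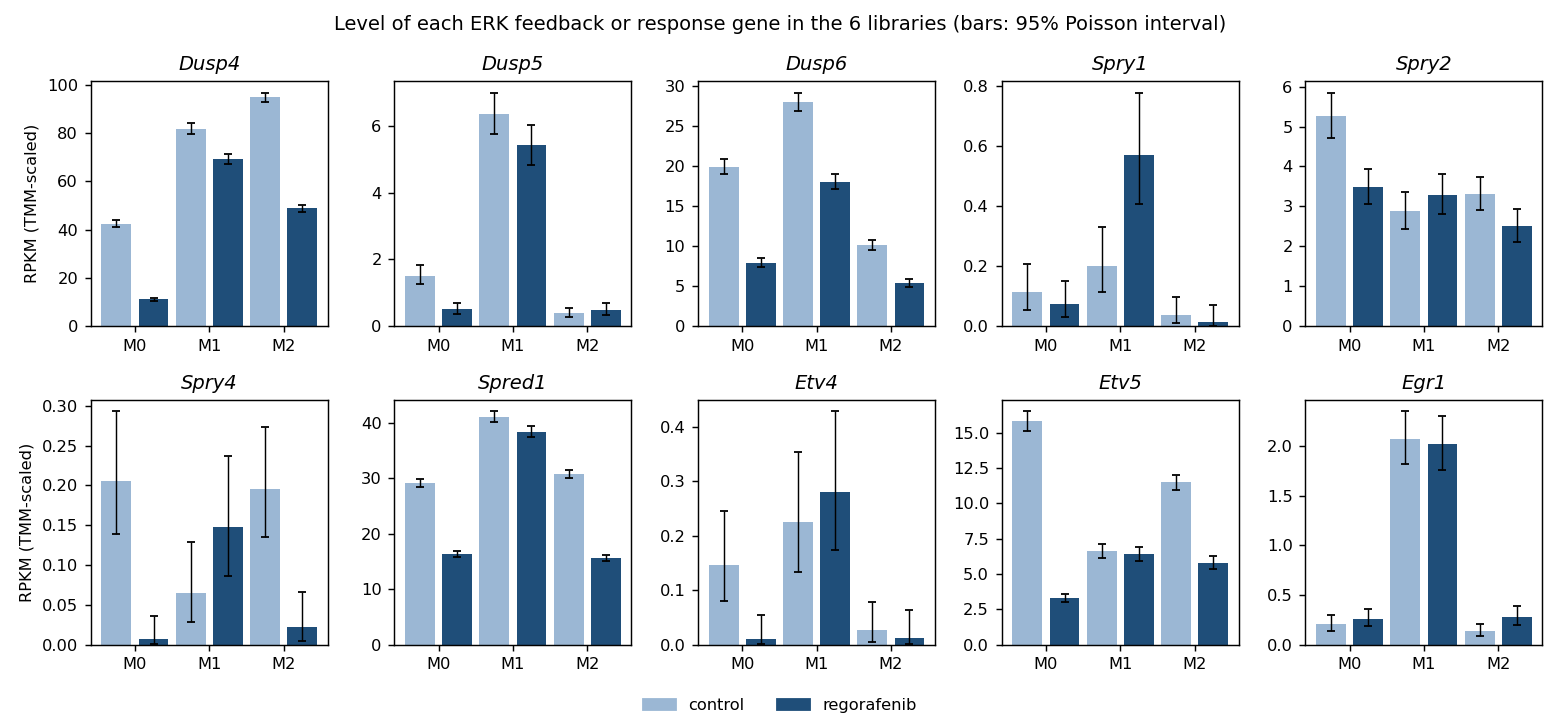
RPKM (TMM-scaled, linear axes that differ between panels) of each gene in the 6 libraries, as light bars for control and dark bars for regorafenib in M0, M1 and M2, with 95% Poisson intervals that cover counting error only. The dark bar lies well under the light bar for Dusp4, Dusp6, Spred1 and Etv5 in M0 and M2, and in M1 the 2 bars are closer in ratio for each of these genes.

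Of the 3 comparisons of regorafenib with control, that in unpolarized macrophages had the median farthest from 0 and the most calls. A gene was called when its TMM-scaled counts differed at least 2-fold between the pair of libraries, with at least 10 counts in the higher one. Of the 10 genes, 6 were called lower in M0 (Dusp4, Dusp5, Dusp6, Spry4, Etv4 and Etv5) and 0 higher, where 10.9% of the 13964 genes tested were called lower and 9.47% higher. Spry4 (30 counts in the control, 1 with regorafenib) and Etv4 (14 and 1) reached 10 counts in the control only. With a minimum of 50 counts, 4 genes were called lower. The median log2 ratio of the 10 genes was -1.44, against 0.005 over all genes tested. The 95% counting interval of the ratio lay below 0 for 8 genes and spanned 0 for the other two, Spry1 and Egr1. These intervals cover counting error only, not the spread between cultures.

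In M1, 0 of the 10 genes were called lower and 2 were called higher (Spry1 and Spry4), against 3.46% of 13440 genes lower and 1.76% higher. Spry4 (8 counts in the control, 17 with regorafenib) reached 10 counts with regorafenib only. The median log2 ratio was -0.04 for the set and -0.02 for all genes. The interval lay below 0 for 4 genes, above 0 for Spry1 and spanned 0 for 5, Spry4 among them. In M2, 8 of the 10 genes had at least 10 counts in the pair. Of these, 1 was called lower (Spry4) and 0 higher, against 5.07% of 13813 genes lower and 6.15% higher. Spry4 (34 counts in the control, 3 with regorafenib) reached 10 counts in the control only. The median of those 8 was -0.94, against -0.03 over all genes, and Dusp4, Dusp6, Spred1 and Etv5 fell just short of a 2-fold difference, between 1.90-fold and 1.98-fold lower. The count of calls in M2 therefore rests on the threshold: at a 1.5-fold difference, 5 genes were called lower and 1 higher, against 12.6% of all genes lower and 12.7% higher.

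**Figure D2:**
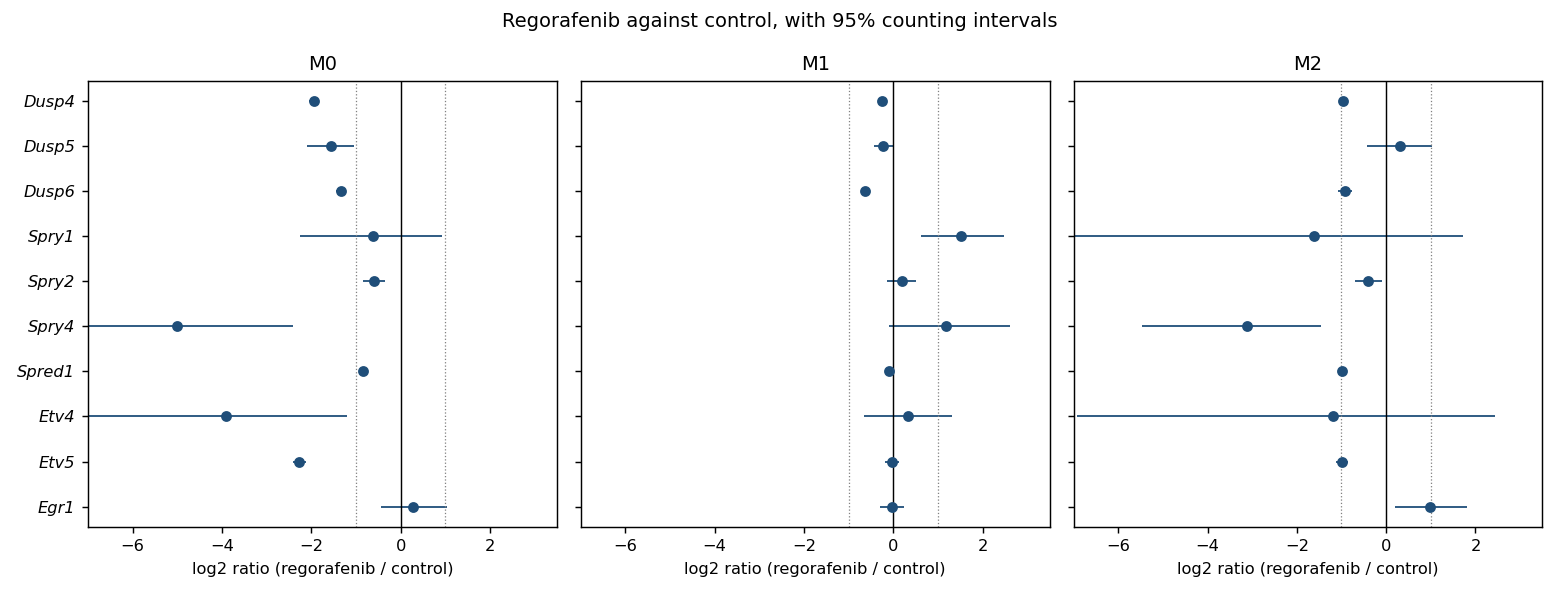
Log2 ratio of regorafenib to control for each gene in M0, M1 and M2, with 95% counting intervals as lines (some reach past the edge of the panel) and dotted lines at a 2-fold difference. The points of Dusp4, Dusp6, Spred1 and Etv5 lie left of 0 in M0 and M2 and nearer to 0 in M1.

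Dusp6 (chr10:99263231-99267489, plus strand, as all positions here on GRCm38) encodes the cytoplasmic phosphatase that acts on ERK1 and ERK2 with high selectivity. It had 1913 counts in the M0 control against 815 with regorafenib and, in the same order for this and the following genes, 2261 against 1360 in M1, and 1155 against 467 in M2. The regorafenib library was the lower one of each pair, and Dusp6 was the member with the largest decrease in M1. The log2 ratio was -1.33 (95% interval -1.45 to -1.21) in M0, -0.63 (-0.73 to -0.54) in M1 and -0.92 (-1.08 to -0.77) in M2. In order of level, the M1 control came first and M2 with regorafenib last. The M0 control and M1 with regorafenib were neighbours in that order, with counting intervals that met, and the other neighbours were apart by more than their counting intervals.

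Dusp4 (chr8:34807297-34819894, plus strand) encodes a nuclear phosphatase that acts on ERK and other MAP kinases. It had 3571 counts in the M0 control and 998 with regorafenib, 5793 against 4561 in M1, and 9482 against 3738 in M2. The regorafenib library had the lower level in each pair, and the ratio was farthest from 1 in M0 and nearest in M1. Its log2 ratio was -1.94 (-2.04 to -1.84) in M0, -0.24 (-0.30 to -0.19) in M1 and -0.96 (-1.01 to -0.90) in M2. The level in M2 with regorafenib (48.8 RPKM) was still above that of the M0 control (42.4 RPKM), and the order of all 6 libraries was clear of counting error.

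Dusp5 encodes a nuclear phosphatase specific for ERK. It had 115 counts in the M0 control and 42 with regorafenib, 406 against 323 in M1, and 36 against 34 in M2. Both M1 libraries stood above the other four. The log2 ratio was -1.56 (-2.10 to -1.03) in M0, -0.23 (-0.44 to -0.02) in M1 and 0.30 (-0.42 to 1.02) in M2, where the interval spanned 0. In order of level, M0 with regorafenib, M2 with regorafenib and the M2 control were not apart by more than their counting intervals. The exons of Dusp5 (chr19:53529109-53542431, plus strand) overlap 547 bases of AC137853.2 on the opposite strand. No gene of that name was found among the counts. The sequencing kit keeps the strand, but which strand the authors counted is not given in the sources used here.

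Spred1 (chr2:117121374-117182279, plus strand) encodes a membrane protein that brings neurofibromin to Ras and so limits Raf activation. Its counts were 6068 against 3651 in M0, 7200 against 6269 in M1, and 7619 against 2954 in M2. By level, the M0 and M2 controls were close to each other (29.1 and 30.8 RPKM) and so were the M0 and M2 libraries with regorafenib (16.3 and 15.6 RPKM), and the M1 pair stood above them all (41.1 and 38.3 RPKM). The log2 ratio was -0.83 (-0.89 to -0.78) in M0, -0.10 (-0.15 to -0.05) in M1 and -0.98 (-1.04 to -0.92) in M2, so that the gene was not called in any state. Dusp4 and Spred1 were the members whose M2 ratio moved beyond its counting interval when total counts were used for scaling.

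Among the Sprouty genes, which encode inhibitors of receptor tyrosine kinase signaling, Spry2 (chr14:105891947-105896819, minus strand) was the one with enough counts in every library. It had 337 against 239 counts in M0, 155 against 165 in M1, and 252 against 146 in M2. The log2 ratio was -0.60 (-0.84 to -0.35) in M0, 0.19 (-0.13 to 0.52) in M1 and -0.40 (-0.71 to -0.10) in M2, none of them called. Spry4 (chr18:38586247-38601415, minus strand) had 30 counts in the M0 control and 1 with regorafenib, and 34 and 3 in M2, whereas M1 had 8 and 17. With regorafenib it was thus at or under 3 counts in M0 and M2 and not in M1. Its log2 ratio was -5.01 (-10.4 to -2.42) in M0, 1.19 (-0.10 to 2.61) in M1 and -3.12 (-5.47 to -1.45) in M2. These values rest on at most 34 reads in a library, and with 1 CPM added to both libraries they shrank to -0.94 in M0, 0.38 in M1 and -0.80 in M2. Spry1 had 10 against 7 counts in M0, 15 against 40 in M1, and 4 against 1 in M2. It was the member whose counting interval lay above 0 in M1, with a ratio of 1.52 (0.63 to 2.48) that shrank to 0.75 and was not called with 1 CPM added, while the intervals in M0 and M2 spanned 0. Its exons (chr3:37639947-37644598, plus strand) overlap 710 bases of Gm42922 on the opposite strand, which had 0 counts in all 6 libraries.

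Etv4 and Etv5 encode ETS transcription factors of the PEA3 group, which are induced downstream of ERK. Etv5 (chr16:22381309-22439719, minus strand) had 1994 counts in the M0 control and 444 with regorafenib, 700 against 635 in M1, and 1721 against 666 in M2. It was highest in the M0 control, then in the M2 control, and lowest in M0 with regorafenib. The log2 ratio was -2.27 (-2.42 to -2.12) in M0 and -0.99 (-1.12 to -0.86) in M2, while in M1 it was -0.04 (-0.20 to 0.12), with a sign that turned under scaling by total counts. The M1 control and M1 with regorafenib were not apart by more than their counting intervals, nor were M1 with regorafenib and M2 with regorafenib. Of the 100-base words of its exons, 15.2% also occur in another gene of the annotation, Gm4798 among them, which had 6 to 54 counts. Etv4 (chr11:101769742-101785371, minus strand) was nearly silent, with 14 against 1 counts in M0, 18 against 21 in M1, and 3 against 1 in M2. Its log2 ratio was -3.91 (-9.31 to -1.19) in M0, and it shrank to -0.50 with 1 CPM added. The intervals in M1 (0.32, from -0.66 to 1.32) and M2 (-1.20, from -6.91 to 2.44) spanned 0.

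Egr1 (chr18:34859823-34864984, plus strand), an immediate-early transcription factor, was not lower with regorafenib by more than counting error in any state. It had 29 against 38 counts in M0, 240 against 218 in M1, and 23 against 35 in M2. The M1 pair stood above the other libraries with or without regorafenib. In M2 the log2 ratio was above 0, at 0.99 (0.19 to 1.82), and in M0 it was 0.29 (-0.45 to 1.04). In M1 it was -0.04 (-0.31 to 0.23), and its sign turned under scaling by total counts.

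The response to regorafenib was then compared between states, as the difference of 2 log2 ratios with its 95% counting interval, for genes with more than 3 counts in all 4 libraries. The difference of M0 from M1 could be taken for 8 genes and lay below 0 for 7 of them, with Egr1 the exception (0.33, -0.42 to 1.07). It was -2.23 (-2.44 to -2.01) for Etv5, -1.70 (-1.81 to -1.58) for Dusp4, -1.33 (-1.88 to -0.77) for Dusp5, -0.74 (-0.81 to -0.66) for Spred1 and -0.70 (-0.85 to -0.55) for Dusp6. The ratios of these 5 genes were thus lower in M0 than in M1 by more than counting error. The difference of M2 from M1 lay below 0 for 5 of 7 genes, above 0 for Egr1 (1.03, 0.22 to 1.83) and spanned 0 for Dusp5. Between M0 and M2, the ratio was lower in M0 for Dusp4, Dusp5, Dusp6 and Etv5, and lower in M2 for Spred1, by 0.15 (0.06 to 0.23). Without replicates these differences between states were not tested against the spread between cultures.

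A change with regorafenib over the 3 states together was tested on 14123 genes by edgeR (quasi-likelihood), blocking on the state. The test asked whether the mean change over the states differed from 0, not whether the states responded alike. Its residual, with 2 degrees of freedom, is the difference between the states in their response. With Benjamini-Hochberg adjustment, 0 of the 10 genes and 0 of all genes (0%) passed an adjusted p of 0.05. At an unadjusted edgeR p under 0.05 there were 4 of the 10 genes (Dusp4, Dusp6, Spred1 and Etv5) and 1646 of the 14123 genes. DESeq2 gave an adjusted p for 9 of the 10 genes, not for Etv4. It called 1 of the 9 (Dusp6) and 296 of 13150 genes. The log2 fold change over the states was -0.96 (SE 0.18) for Dusp6, with an edgeR adjusted p of 0.301, -1.04 (SE 0.32) for Dusp4, with 0.378, and -1.09 (SE 0.42) for Etv5, with 0.420. With no filter on low counts, edgeR called 2 of the 10 (Dusp4 and Dusp6) and 333 of 24938 genes. The count also changed without the M1 pair. Of 13567 genes, edgeR then called 892 (6.57%), 448 of them lower, with 1 residual degree of freedom. It called 4 of the 8 members that could be tested, all lower. They were Spred1 (log2 fold change -0.91, SE 0.12, adjusted p = 0.0343), Dusp6 (-1.13, SE 0.17, 0.0384), Spry4 (-3.78, SE 0.59, 0.0415) and Dusp4 (-1.44, SE 0.26, 0.0489). Without the M0 pair or without the M2 pair, 0 members were called, and 0 of all genes (13661 and 13677 tested).

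The polarized macrophages were then compared with M0. The comparisons of M1 and of M2 with M0 use the same M0 libraries as the comparison of regorafenib with control in M0, so they are given side by side and are not separate evidence. Between the controls, 2 of the 10 genes were called higher in M1 than in M0 (Egr1 and Dusp5) and 2 lower (Etv5 and Spry4), against 17.4% of 14168 genes higher and 19.7% lower. Spry4 (30 counts in M0, 8 in M1) reached 10 counts in the M0 control only. The log2 ratio of M1 to M0 was 3.30 (2.74 to 3.91) for Egr1, 2.07 (1.77 to 2.38) for Dusp5, -1.26 (-1.39 to -1.14) for Etv5 and -1.66 (-2.99 to -0.50) for Spry4. Dusp4, at 0.95 (0.89 to 1.01), lay just under a 2-fold difference. With regorafenib, 8 of the 10 genes were called higher in M1 than in M0 and 0 lower, against 16.3% of 14159 genes higher and 21.6% lower. Spry4 and Etv4 had 1 count each in M0 with regorafenib and Spry1 had 7, so these genes reached 10 counts in M1 only. The 8 calls became 5 at a minimum of 50 counts and 6 with scaling by total counts. The genes not called were Etv5 (0.97, 0.79 to 1.15) and Spry2 (-0.08, -0.38 to 0.21). The Etv5 ratio was thus below 0 between the controls and above 0 with regorafenib. Scaling by total counts in place of TMM moved the median of all genes by -0.44 between the M1 and M0 controls and by -0.41 with regorafenib, which is more than in any other comparison, so ratios of M1 to M0 near 0 or near a 2-fold difference depend on the scaling.

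In M2 against M0, 1 gene was called higher between the controls, Dusp4 at 1.16 (1.10 to 1.22), and 3 were called lower, against 4.69% of 13830 genes higher and 7.61% lower. The lower ones were Etv4 (-2.47, -4.91 to -0.63), Dusp5 (-1.92, -2.51 to -1.37) and Spry1 (-1.57, -3.70 to 0.22), the last with an interval that spanned 0. Etv4 and Spry1 reached 10 counts in the M0 control only. Dusp6 was at -0.98 (-1.08 to -0.87) in the same comparison. With regorafenib, 7 of the genes had enough counts, 1 was called higher, again Dusp4 at 2.14 (2.04 to 2.24), and 0 lower, against 4.41% of 13841 genes higher and 5.18% lower. Dusp4 was thus above M0 in both polarized controls by more than counting error, whereas Dusp5 was higher in M1 and lower in M2 among the controls.

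**Figure D3:**
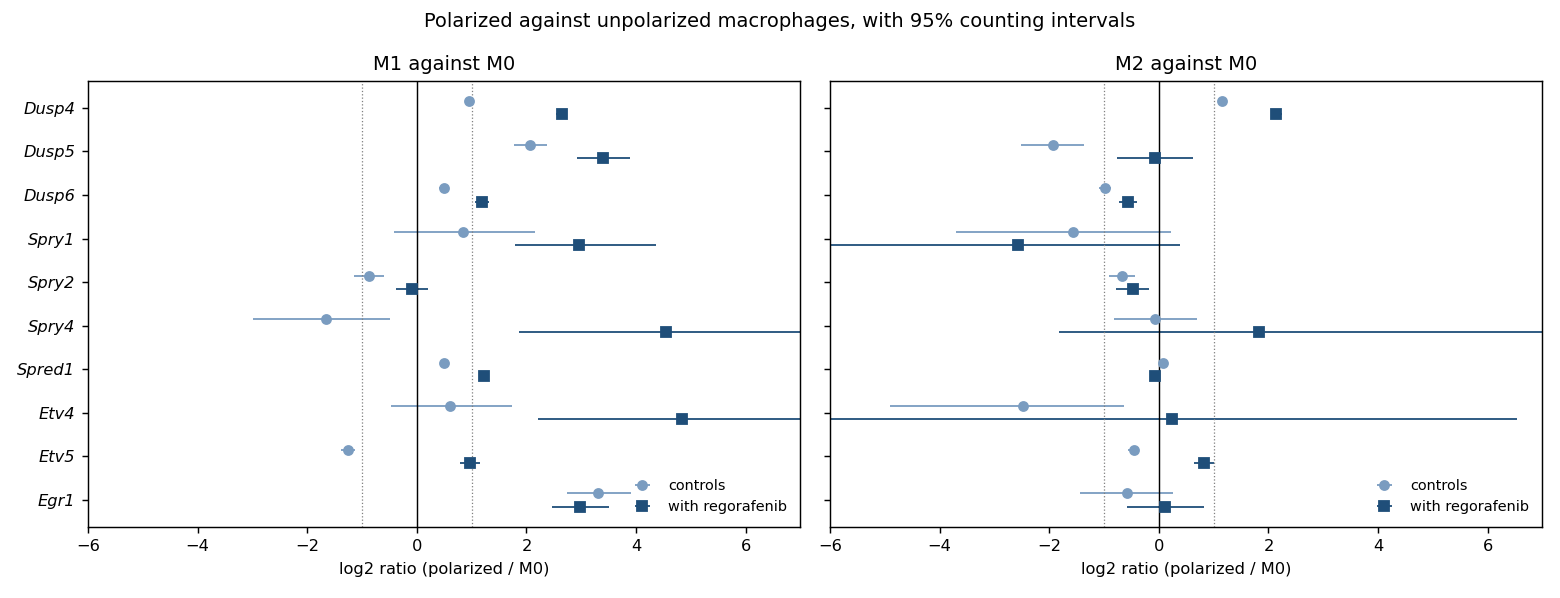
Log2 ratio of M1 to M0 (left) and M2 to M0 (right) for each gene, as circles between the controls and squares between the regorafenib libraries, with 95% counting intervals (some reach past the edge of the panel) and dotted lines at a 2-fold difference. In M1 against M0 the squares of 8 genes lie beyond a 2-fold difference to the right.

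The fit over all 6 libraries, with regorafenib as a block, gave the same comparison over both treatments. For M1 against M0, edgeR's quasi-likelihood test with Benjamini-Hochberg adjustment called 5 of the 10 genes, all higher in M1, where 36.6% of the 14123 genes were called. They were Egr1 (log2 fold change 3.14, SE 0.36, adjusted p = 0.00215), Dusp5 (2.63, SE 0.46, 0.00779), Dusp4 (1.78, SE 0.40, 0.0183), Dusp6 (0.84, SE 0.22, 0.0285) and Spred1 (0.89, SE 0.25, 0.0386). Without regorafenib as a block, 2 of the 5, Dusp5 and Egr1, were still called, where 4432 of the 14123 genes were called. Over all genes, 2443 were higher and 2730 lower, and with scaling by total counts 1629 were higher and 5113 lower. With that scaling Dusp6 and Spred1 were not called, Egr1, Dusp5 and Dusp4 were called higher, and Spry2 was called lower (-0.90, SE 0.28, edgeR adjusted p = 0.0466). For M2 against M0, edgeR called 0 of the 10 genes, and 31 of the 14123 genes (0.22%). At an unadjusted edgeR p under 0.05 there were 2 of the 10 and 1312 of the 14123 genes. DESeq2 called 1 of the 10 (Dusp4) and 413 of 13604 genes.

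The rest of the pathway was described with 4 further lists. Counts are given with the control first, and the highest and lowest gene of a list is the one with the highest or lowest ratio among those with at least 100 counts in the pair. Of 20 genes of the cascade itself (adaptors, Ras, Raf, MEK, ERK and their kinase targets), 1 was called higher with regorafenib in M0 (9.47% of all genes), 0 in M1 (1.76%) and 1 in M2 (6.15%), with medians of 0.16, -0.15 and 0.10. Gab1, a docking adaptor, had 239 counts in the M0 control and 1766 with regorafenib (log2 ratio 2.78), 321 and 718 in M2 (1.55), and 345 and 208 in M1, where at -0.63 it was the lowest of the list. Araf was the highest of the list in M1 (0.22).

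Of 9 other MAP kinase phosphatases, 8 had enough counts in M0 and 4 of these were called lower (Dusp1, Dusp8, Dusp9 and Dusp16) and 0 higher, against 10.9% of all genes lower and 9.47% higher. In M1, with 3.46% of all genes lower, 1 of 9 was called lower, Dusp1, which acts mainly on p38 and JNK. It had 534 and 236 counts in M0 (-1.28) and 2057 and 807 in M1 (-1.25), whereas Dusp4 was at -1.94 in M0 and -0.24 in M1. In M2, with 5.07% of all genes lower and 6.15% higher, 2 of 8 were called lower, Dusp8 (110 and 22 counts, -1.94) and Dusp16, and 1 higher, Dusp2 (40 and 81 counts). Dusp7 was the highest of the list in M0 (-0.08) and M2 (-0.31), and Dusp8 in M1 (0.24). Dusp9, Dusp16 and Dusp2 were named after their values were seen, to complete these counts.

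Of 12 other inhibitors of Ras and ERK, 11 were found, and 2 were called lower and 0 higher in each state, where 10.9% of all genes were called lower in M0, 3.46% in M1 and 5.07% in M2. In M0 and M2 these were Spred2, the closest relative of Spred1, and Dab2ip, a Ras GTPase-activating protein. Spred2 had 1643 and 496 counts in M0 (-1.83) and 1805 and 563 in M2 (-1.30). In M1 they were Spred3 (119 and 49 counts, -1.18) and Dab2ip (40 and 8 counts). Dab2ip was thus called lower in all 3 states, and it too was named after its values were seen. The highest of the list were Rasa3 in M0 (0.58), Il17rd in M1 (0.50) and Ptpn6 in M2 (0.40).

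Of 20 other ERK response genes, 7 were called lower and 0 higher in M0, against 10.9% of all genes lower and 9.47% higher. Fosl1, which encodes the Fra-1 subunit of AP-1, was the lowest, with 120 counts in the control and 7 with regorafenib (-4.20), and Mcl1 was the highest (0.50). The others called lower in M0 were Ccnd1 (29262 and 1921 counts, -4.03), which encodes cyclin D1, Myc (1142 and 193 counts, -2.67), Phlda1, Plaur, Fos and Etv1, named after their values were seen. In M1, with 3.46% of all genes lower, 2 of 20 were called lower, Fosl1 (269 and 97 counts, -1.37) and Fosb (11 and 3 counts), and 0 higher, and Elk3 was the highest (0.21). In M2, with 5.07% of all genes lower and 6.15% higher, 3 of 19 were called lower and 1 higher, Fosb, with 2 and 13 counts. Ccnd1 was the lowest in M2, with 51132 and 5438 counts (-2.85), and the others called lower were Etv1 and Fosl1, while Egr2 was the highest (0.74). Fosb, Etv1 and, in M2, Fosl1 were named after their values were seen. The medians of this list were -0.30, -0.10 and -0.41 in M0, M1 and M2.

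**Figure D4:**
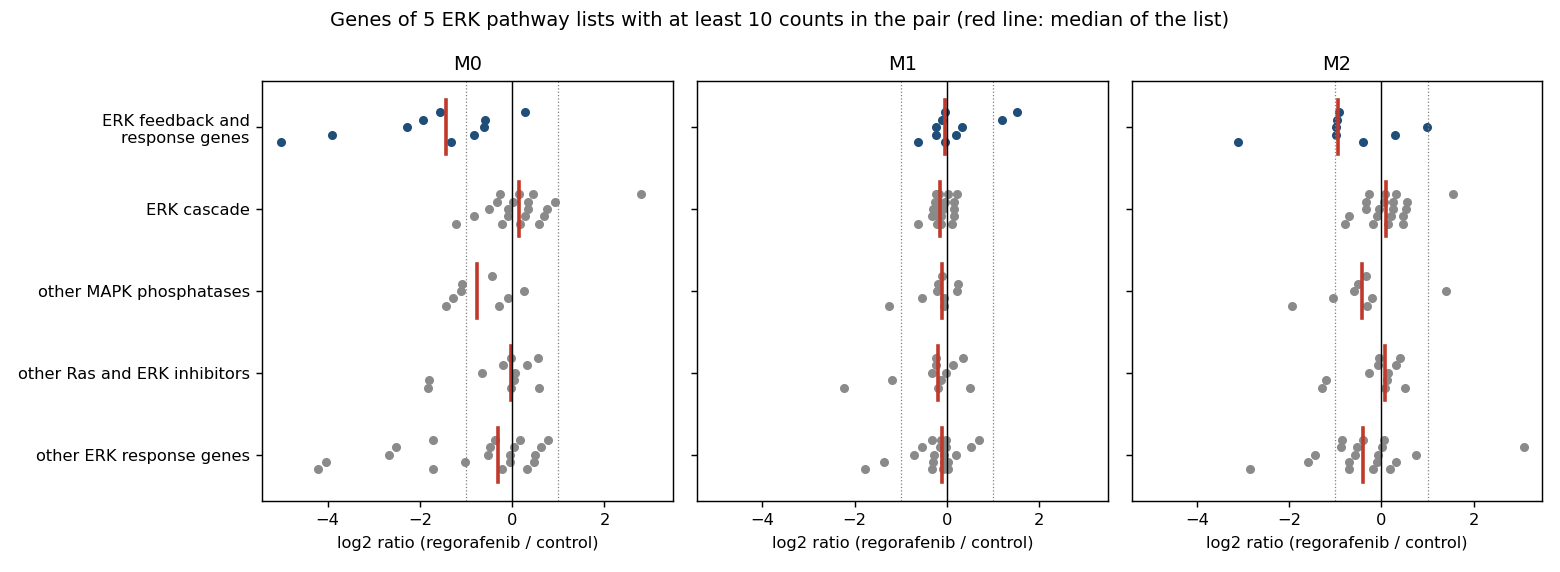
Log2 ratio of regorafenib to control for the 10 genes (dark points) and for the 4 further lists (grey points), on the same axis in M0, M1 and M2, with the median of each list as a red line and dotted lines at a 2-fold difference. The median of the 10 genes is -1.44 in M0, -0.04 in M1 and -0.94 in M2, and that of the cascade genes is 0.16, -0.15 and 0.10.

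Csf1r, which encodes the receptor for the CSF-1 of the culture medium, went the other way in M0 and M2. It had 52356 counts in the M0 control and 101392 with regorafenib, 64521 and 78969 in M2, and 49500 and 41775 in M1. Its log2 ratio was 0.85 in M0, 0.68 in M2 and -0.14 in M1.

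The genes whose levels followed Dusp6 and Etv5 most closely were sought among 11301 genes that reached 100 counts in any library, by Pearson's r of log2(CPM + 1) over the 6 libraries. The 6 points share the scaling and the 3 states, and r is given as a description. For Dusp6 they were Slc7a6 (r = 0.993), Ets2 (0.985) and Srgap3 (0.985). Slc7a6 had 1257 against 997 counts in M0, 1156 against 1005 in M1, and 1202 against 740 in M2, smaller differences than those of Dusp6. Ets2, which encodes another ETS factor, had 5416 against 1146 counts in M0, 7166 against 4427 in M1, and 2774 against 772 in M2. For Etv5 they were Ncbp1 (0.997), Gm9761 (0.997) and Slc7a1 (0.996). Slc7a1, an amino acid transporter, had 2286 against 651 counts in M0, 887 against 869 in M1, and 1986 against 949 in M2. Its pair of M1 libraries was close together, as was that of Etv5.

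Among the 7 members with at least 10 counts in every library, which leave out Spry1, Spry4 and Etv4, r of the same values was highest for Dusp5 and Egr1 (0.941), followed by Dusp6 and Spred1 (0.891) and by Dusp5 and Dusp6 (0.852). It was below 0 for Egr1 and Spry2 (-0.31), Egr1 and Etv5 (-0.24), Dusp4 and Spry2 (-0.22) and Dusp5 and Spry2 (-0.01). Dusp5 and Egr1 were both high in the M1 libraries, whereas in M0 the regorafenib library had fewer counts of Dusp5 and not of Egr1.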

How the data were processed

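The values deposited by the authors are whole-number read counts per gene, with no normalization. Per the labels and the study's methods, paired reads of 100 bases from stranded mRNA libraries were trimmed with cutadapt 2.4, mapped to GRCm38 and counted per gene with STAR 2.7.2a on Gencode annotation, 1 library per condition. The strand counted is not given in the sources used here. STAR's gene counts leave out reads that map to several places, which lowers genes with near-identical copies.

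Gene names, positions and exon lengths came from Gencode M21 (GRCm38), in which 54409 of 54446 IDs were matched. Counts were scaled by TMM (edgeR 4.0.16, R 4.3.3), with a count of 0 replaced by 0.5. Each log2 ratio has a conditional exact binomial interval (95%) of the counts, which covers counting error only. Calls needed a 2-fold difference and 10 counts in the higher library, and a library with 3 or fewer counts was taken as at the floor. Changes across states used edgeR's quasi-likelihood test on genes kept by filterByExpr, with Benjamini-Hochberg adjusted p under 0.05, and its p-values measure only the spread between these libraries. DESeq2 1.42.0, other scalings, thresholds, blocks and left-out pairs were alternatives. The fit and the intervals were tested on simulated data. The no-replicate NOISeq test of the study was not rerun, since it simulates replicates.

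All 10 genes are named. Of each further list, the highest and lowest gene with at least 100 counts are named, and others only to complete a small count. An item of the cascade list is not reported here. The 10 genes, the lists and the rule were chosen with earlier results of these data known.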

Additional observations from a re-analysis of the deposited data

How the results depend on the processing

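Intervals and calls between single libraries rest on counting error alone, and genes with at most 40 counts in a library (Spry1, Spry4, Etv4) limit most of the calls that moved. The 6 calls in M0 became 4 with 1 CPM added, at a 3-fold difference and with at least 50 counts, and 9 at a 1.5-fold difference, and stayed 6 under the other alternatives run. With regorafenib in M1, the 2 calls became 0 with 1 CPM added, at a 3-fold difference and with at least 50 counts. In M2, the 1 lower call was joined by 1 higher call, Egr1, to give 2 with DESeq2 size factors and with total counts, and the count became 6 at a 1.5-fold difference, 3 with no minimum count, and 0 with 1 CPM added and with at least 50 counts. For M1 against M0, the 4 calls between the controls became 8 at a 1.5-fold difference, 5 with total counts and 3 with 1 CPM added, at a 3-fold difference and with at least 50 counts, and the 8 calls with regorafenib became 5 with at least 50 counts, 6 with total counts, with 1 CPM added and at a 3-fold difference, and 9 with DESeq2 size factors and at a 1.5-fold difference. For M2 against M0, the 4 calls between the controls became 2 with 1 CPM added, at a 3-fold difference and with at least 50 counts, 5 with total counts and 6 at a 1.5-fold difference, and the 1 call with regorafenib became 2 at a 1.5-fold difference and 3 with no minimum count.

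In the edgeR fits, regorafenib across the states called 2 members and 333 of 24938 genes with no filter on low counts. With DESeq2 it called 1 of 9 members and 296 of 13150 genes. When a state's pair was left out, it called 0 to 4 members and 0 to 892 genes, the upper values without the M1 pair. M2 against M0 called 1 member and 408 of 24938 genes with no filter and 1 member and 413 of 13604 genes with DESeq2, and without the regorafenib block 0 genes. M1 against M0 called 2 members (Dusp5 and Egr1) and 4432 of 14123 genes without that block. The causes were not tested. Of the 30 log2 ratios of regorafenib to control, 30 stayed within their counting interval with DESeq2 size factors, 28 with total counts and 27 with 1 CPM added, and the sign turned for Etv5 and Egr1 in M1 with total counts. Each regorafenib library was paired with the control of its state through the state block, and the labels give no replicate numbers that could pair libraries further.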
